A study of Mus musculus with 6 samples.

Results

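Allele-resolved RNA-seq was examined for 87 autosomal genes that were expressed almost entirely from a single parental allele in the mouse B-cell clone Abl.2 and from both alleles in the clones Abl.3 and Abl.4. They were selected on measured values: a mean maternal share of allelic counts of at most 0.1 or at least 0.9 in Abl.2 and from 0.3 to 0.7 in each of the other clones. Each gene also needed a sum of at least 20 allelic counts in every one of the 6 libraries and a place on an autosome other than chromosomes 4 and 10. Of 19402 genes with allelic counts, 7495 met the coverage and position limits, and the 87 genes are 1.16% of these. The full set held 90 genes, and Lef1, Smad3 and Hk2 were left out of it. All groups were clones of immortalised B cells from F1 mice of a cross between 129S1/SvImJ and CAST/EiJ, held in medium with 1% DMSO, a solvent, as the labelled control treatment and harvested at day 2. Abl.3 is labelled male and the other clones female. Each line is a single clone with 2 libraries that differ by library preparation, so the tests measure only the spread between preparations, which may be technical. A difference between lines is a difference between these 3 clones.

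A diploid cell carries a maternal and a paternal copy of each autosomal gene, and most genes are transcribed from both. In random autosomal monoallelic expression, individual clones of the same genotype use the maternal copy, the paternal copy or both, and a clone passes its choice on through cell division. This differs from genomic imprinting, in which the parent of origin fixes the active copy in every cell, and from X inactivation, which silences most of a chromosome. DNA methylation and histone marks at promoters are studied as carriers of such states. The series title names monoallelic expression and its link with DNA methylation as the subject, and the files analysed here hold RNA measurements only.

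The allele tables name the alleles maternal and paternal. In the text the allele with most of the counts in Abl.2 is called the major allele of a gene and the other its minor allele, and both names are kept for the same parental allele in Abl.3 and Abl.4. The allelic counts summed to between 18362319 and 26881211 per library. For the 87 genes the counts per gene and library ran from 28 to 16157 in Abl.2 (median 425.5), from 22 to 4867 in Abl.3 (median 686) and from 52 to 7083 in Abl.4 (median 796). The 95% Wilson interval of a share in a single library had a median width of 0.0582 and a greatest width of 0.384. These intervals cover counting error only, since the reads carry no molecular identifiers. In bulk RNA, fewer cells that use an allele and less RNA of that allele per cell cannot be told apart. The B-lineage label was checked with 12 markers, all of which reached 1 TPM in the tables (transcript abundance corrected for gene length and depth), with a summed level of 18106 to 20862 TPM per library. Markers of other lineages were low or at 0 for 7 of 9 T-cell genes, 8 of 11 myeloid genes, 6 of 9 erythroid and megakaryocyte genes and 8 of 9 stromal genes, each below 0.5 TPM in every library. Cd3g, Cd4, Thy1, Adgre1, S100a8 and Col1a2 were listed at 0 in all 6 libraries. Among markers that reached 1 TPM, Cd5 was at 1 and 1.41 TPM in Abl.2, 6.03 and 5.07 TPM in Abl.3 and 3.90 and 1.69 TPM in Abl.4. Itgam was at 0.51 and 0.35, 0.72 and 0.97, and 6.89 and 6.74 TPM in the same order. Cd28 was at 1.05 and 1.15 TPM in Abl.4. The myeloid list summed to 159 to 193 TPM in Abl.2, 74.98 to 97.2 TPM in Abl.3 and 77.9 to 89.4 TPM in Abl.4, most of it Lyz2. The stromal list summed to 24.1 to 24.8 TPM in Abl.2, 18.1 to 18.4 TPM in Abl.3 and 50.1 to 55.4 TPM in Abl.4, nearly all of it Pecam1, which is also found on blood cells. The part of either list in the results was not tested.

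The maternal allele was the major one for 55 of the genes and the paternal allele for 32. Those with a maternal major allele are 2810021J22Rik, 3110040N11Rik, Abca3, Ano10, Arhgap39, Arhgef12, Bdh1, Birc3, Bmpr1a, Btg3, Camk1d, Cbfa2t3, Cobll1, Crtap, Dis3l2, Edaradd, Eml2, Erlin1, Fbxw17, Gsap, Gypc, Hadh, Hist1h1a, Ice2, Irak1bp1, Kirrel, Llgl2, Lxn, Lztfl1, Myo18a, Pcdh9, Pde4a, Phf19, Pqlc1, Prkar2b, Prkcb, Qsox1, Rabl2, Rasgrp1, Ripk3, Rnf113a2, Rps6ka2, Scd1, Sfxn3, Slc39a11, Snx10, Spry1, Tm7sf3, Tmem98, Ubash3b, Wdr41, Wipi1, Zfp110, Zfp512b and Zfp7. Those with a paternal major allele are 2700062C07Rik, Adck1, Arhgap31, BC005561, Carmil2, Casc4, Cnrip1, Dyrk1b, Epdr1, Epn1, Fam160a1, Fzd9, Gng12, Inpp4b, Lifr, Myo6, Nle1, Ogfrl1, Pag1, Pla2g12a, Pmaip1, Prkd3, Rufy1, Sirt5, St3gal5, Tet2, Thbd, Unc13d, Wdfy3, Zdhhc2, Zfp605 and Zfp606. Among all 421 eligible genes past the same share limits in Abl.2, whatever their shares in the other clones, 207 were maternal and 214 paternal. All 87 are annotated as protein coding. Another annotated gene overlaps 48 of them (55.2%, against 59.3% of the eligible genes), and since it is not stated whether the counting used strand, reads of overlapping genes may have been shared.

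The members lie on all 17 autosomes examined. Chromosome 3 had the highest proportion, with 8 of 382 eligible genes (2.09%), followed by chromosome 9 with 10 of 503 (1.99%). Chromosome 1 had the lowest, with 3 of 492 (0.610%), and chromosome 11 held 10 of 740 (1.35%). The median of log2(TPM + 1) in Abl.3 and Abl.4 was 4.11 for the members and 4.82 for all eligible genes, so the members were genes of somewhat lower abundance than the table they were drawn from.

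In Abl.2 the median share of the minor allele was 1.5% of the counts. It was below 1% for 40 genes, from 1% to 5% for 28 and from 5% to 10% for 19. For 8 genes, Wipi1, 2700062C07Rik, Casc4, Snx10, Gng12, Dyrk1b, Myo6 and Lztfl1, the minor allele had 0 counts in both libraries of Abl.2, which for the pooled counts allows a share of up to 0.412% to 4.41%. The major allele had a median share of 0.985 in Abl.2, against 0.536 in Abl.3 and 0.537 in Abl.4. The same parental allele held over 0.5 of the counts in 57 of 87 genes in Abl.3 and in 57 in Abl.4. Each of these shares describes the selection and is not tested.

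**Figure D1:**
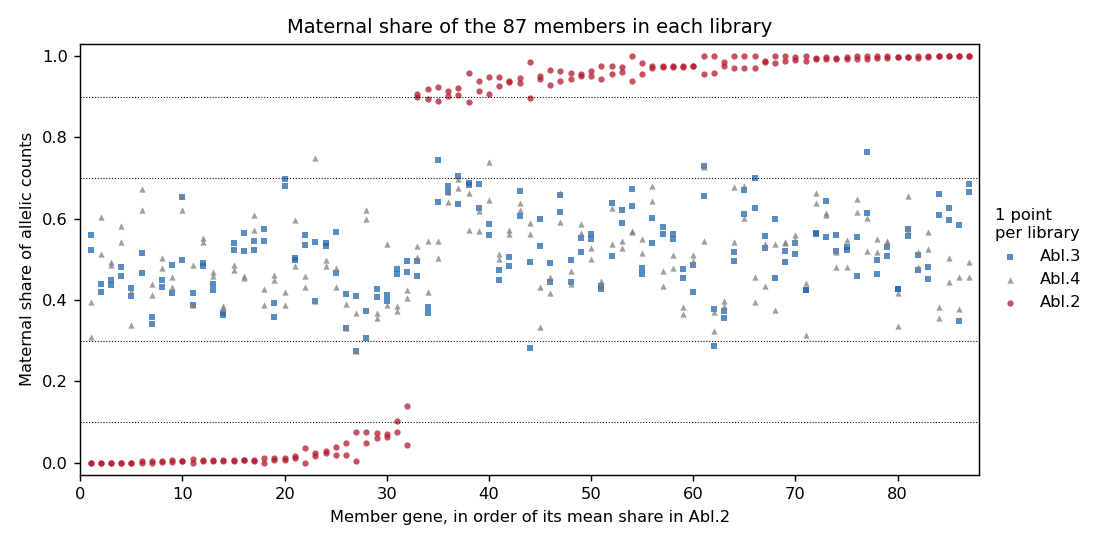
Maternal share of allelic counts (vertical axis, 0 to 1) for each of the 87 genes, ordered by their mean share in Abl.2 (horizontal axis), with 1 point per library and dotted lines at 0.1, 0.3, 0.7 and 0.9. The 32 paternal genes lie at the lower left and the 55 maternal genes at the upper right in Abl.2, while the points of Abl.3 and Abl.4 scatter around the middle.

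The selection used the mean of 2 libraries, and 81 of the 87 genes were past the limits in each library of Abl.2. In the other direction, 78 were between 0.3 and 0.7 in each of the 4 libraries of Abl.3 and Abl.4. Libraries of a line differed most by 0.0954 in Abl.2 (Inpp4b), 0.236 in Abl.3 (Wipi1) and 0.352 in Abl.4 (Fam160a1). Just inside the lower limit were Inpp4b at a mean maternal share of 0.0904, Epn1 at 0.0888 and Lifr at 0.0670, and just outside it Slc25a23 at 0.102, Bbs1 at 0.109 and Zdhhc8 at 0.121. Just inside the upper limit were Myo18a at 0.904, Gsap at 0.907 and Prkar2b at 0.907, and just outside it Tbc1d24 at 0.882, Mast4 at 0.879 and Unc13a at 0.877. The genes at the edges of the set thus differ little in share from those that missed it. In the authors' deposited table of allelic fractions, the interval excluded 0.5 in Abl.2 for 84 of 84 members with an estimate (28% of eligible genes). It did so for 21 of 86 in Abl.3 (24.5% of eligible genes) and for 15 of 87 in Abl.4 (19.7% of eligible genes). The rule used these shares, so nothing is read from those counts.

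Among genes with at least 100 allelic counts in every library, the most extreme paternal genes were 2700062C07Rik, Casc4, Gng12 and Cnrip1. Gng12 encodes a gamma subunit of heterotrimeric G proteins, and its maternal share was 0 in both libraries of Abl.2, 0.420 and 0.439 in Abl.3 and 0.514 and 0.604 in Abl.4. Cnrip1, a protein that binds the cannabinoid receptor, had maternal shares of 0.00284 and 0 in Abl.2, 0.516 and 0.465 in Abl.3 and 0.674 and 0.621 in Abl.4. The most extreme maternal genes were Snx10, Ano10, Dis3l2 and Ice2. Snx10, a sorting nexin of endosomes, had a maternal share of 1 in both libraries of Abl.2, 0.626 and 0.597 in Abl.3 and 0.444 and 0.503 in Abl.4. Dis3l2, an exonuclease that degrades uridylated RNA, had shares of 1 and 0.998 in Abl.2, 0.452 and 0.482 in Abl.3 and 0.525 and 0.568 in Abl.4.

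Total transcript abundance was then compared between the clones, since a gene reduced to a single allele may yield less RNA or may keep its level. Of the 87 genes, 86 had TPM values and passed the mean of 1 TPM, and Rnf113a2 had no row. In a limma fit of log2(TPM + 1), with Benjamini-Hochberg adjustment over 11003 genes and a threshold of 0.05, 59 members were lower in Abl.2 than in Abl.3 (14% of all genes tested), 6 were higher (25.9% of all genes) and 21 did not pass. Against Abl.4, 69 members were lower in Abl.2 (18.4% of all genes), 2 were higher (15% of all genes) and 15 did not pass. The median difference of the members was -0.73 on the log2 scale against Abl.3 and -0.98 against Abl.4, which correspond to folds of 0.604 and 0.506, while the median of all genes was 0.10 and -0.03. These comparisons share the libraries of Abl.2. The share and the abundance come from the same reads, and a gene that has lost the counts of 1 allele has a lower total unless the other allele rises, so the counts describe the selected genes and are not independent of the selection. With quantile normalisation, which brings the median of all genes against Abl.3 to -0.00, 65 members were lower in Abl.2 than in Abl.3 and 5 higher. That scaling moved the lower share of calls over all genes from 35.0% to 48.6%, and that of the members from 90.8% to 92.9%.

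**Figure D2:**
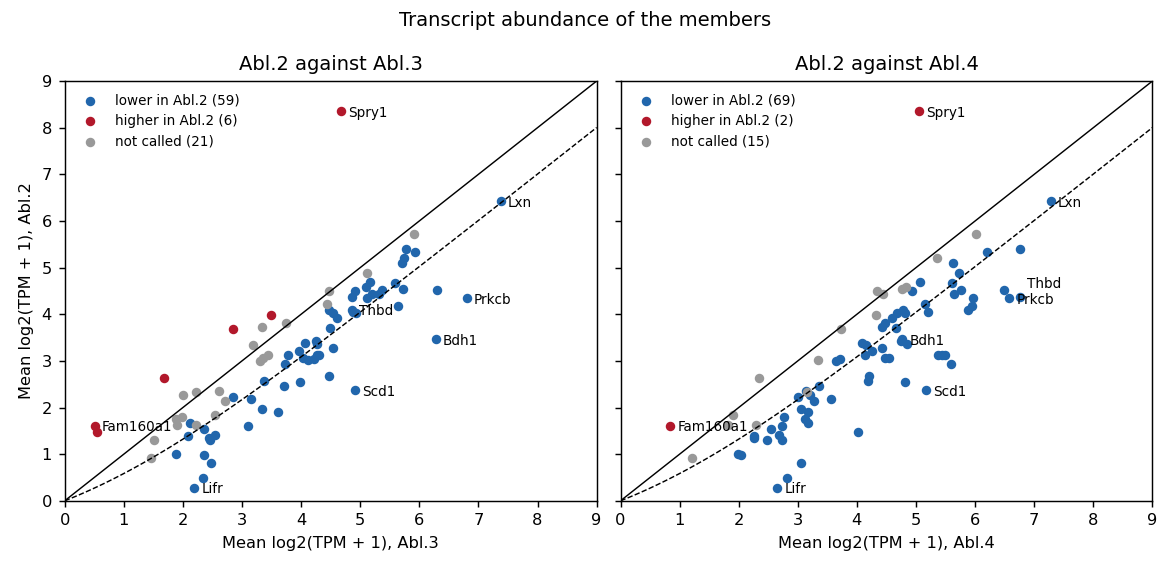
Mean log2(TPM + 1) of the 86 genes with TPM values in Abl.2 (vertical axis) against Abl.3 (left) and Abl.4 (right), with 1 point per gene coloured by its call in limma. The solid line marks equal abundance and the dashed line a TPM lower by a factor of 0.5, and most points lie below the solid line, with Spry1 far above it.

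Both parental classes of members held more lower than higher calls. Of 54 maternal genes tested, 34 were lower and 4 higher in Abl.2 than in Abl.3, and 42 were lower and 1 higher than in Abl.4. Of 32 paternal genes, 25 were lower and 2 higher than in Abl.3, and 27 were lower and 1 higher than in Abl.4. Among all genes tested, 14% were lower and 25.9% higher in Abl.2 than in Abl.3. Against Abl.4 the all-gene values were 18.4% lower and 15% higher. Whether these proportions differ between the parental alleles was not tested.

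The largest falls and rises among genes called in the same direction against both other clones were Scd1, Prkcb, Lifr, Pmaip1, Bdh1 and Ubash3b among the falls and Spry1 and Fam160a1 as the only rises. The RefSeq promoters of Prkcb and Lifr, which follow Scd1 in size of fall by the mean of both differences, and of both rises are given here, 250 bases before to 50 after the RefSeq start of each gene in GRCm38.p6, because CG dinucleotides are the main sites of DNA methylation in mammals. CG dinucleotides are in capitals. Prkcb is at chr7:122288875-122289174 on the + strand, Lifr at chr15:7129322-7129621 on the + strand, Spry1 at chr3:37639697-37639996 on the + strand and Fam160a1 at chr3:85746160-85746459 on the - strand.
Prkcb: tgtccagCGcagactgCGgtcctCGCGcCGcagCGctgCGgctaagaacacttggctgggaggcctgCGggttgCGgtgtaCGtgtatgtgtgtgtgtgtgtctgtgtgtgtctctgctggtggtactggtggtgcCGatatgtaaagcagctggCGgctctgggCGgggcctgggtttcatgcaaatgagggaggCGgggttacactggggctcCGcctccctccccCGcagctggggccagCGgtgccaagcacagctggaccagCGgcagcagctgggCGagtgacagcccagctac
Lifr: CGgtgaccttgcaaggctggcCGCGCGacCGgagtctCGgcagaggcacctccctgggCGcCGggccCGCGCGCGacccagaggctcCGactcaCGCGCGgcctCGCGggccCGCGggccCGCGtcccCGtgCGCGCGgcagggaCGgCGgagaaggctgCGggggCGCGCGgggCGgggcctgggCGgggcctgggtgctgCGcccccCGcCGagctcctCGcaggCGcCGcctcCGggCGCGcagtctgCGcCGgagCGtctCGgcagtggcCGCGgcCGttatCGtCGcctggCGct
Spry1: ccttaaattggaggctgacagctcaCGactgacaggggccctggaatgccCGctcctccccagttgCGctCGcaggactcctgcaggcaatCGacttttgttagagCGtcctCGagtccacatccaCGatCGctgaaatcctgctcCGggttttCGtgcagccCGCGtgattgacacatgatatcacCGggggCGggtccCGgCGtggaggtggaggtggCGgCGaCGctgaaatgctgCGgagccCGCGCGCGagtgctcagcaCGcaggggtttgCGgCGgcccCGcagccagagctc
Fam160a1: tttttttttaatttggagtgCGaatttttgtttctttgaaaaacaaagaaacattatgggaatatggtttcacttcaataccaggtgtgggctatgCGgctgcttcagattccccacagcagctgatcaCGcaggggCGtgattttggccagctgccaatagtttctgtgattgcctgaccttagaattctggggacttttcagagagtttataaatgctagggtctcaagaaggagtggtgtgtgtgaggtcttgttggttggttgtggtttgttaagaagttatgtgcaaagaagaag
The windows hold 19 CG in Prkcb, 53 in Lifr, 29 in Spry1 and 4 in Fam160a1, and the windows of the smaller falls Bdh1 and Ubash3b, not printed, hold 7 and 5. The RefSeq starts lie 374 bases from the GENCODE gene start for Prkcb, 38958 for Lifr, 0 for Spry1 and 71082 for Fam160a1. The windows of Lifr and Fam160a1 thus belong to internal starts. For Bdh1 and Ubash3b the distances are 17 and 3635 bases, so the Ubash3b window is not at the GENCODE gene start either. Of the 4 windows, that of Fam160a1 holds the letters TATAAA and CAGGTG, searched on both strands and not overlapping each other; they occur in 13.6% and 20.2% of the 32851 RefSeq promoters of this length, and in 6.36% and 16.1% of the 5909 that matched eligible genes. Only 68 of the 87 members matched a RefSeq promoter, fewer than 80%, so a comparison of promoter CG content over the set is void. DNA methylation was not measured in the data analysed here.

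The named members are described in turn by their known roles, a grouping made after their values were seen and not a test of any role. Signalling proteins come first. Where a pair of log2 differences is given below without naming the clones, the first is Abl.2 minus Abl.3 and the other Abl.2 minus Abl.4. Prkcb encodes protein kinase C beta, which relays the B-cell receptor signal towards NF-kappaB. It was at 18.4 and 20.2 TPM in the libraries of Abl.2, 113 and 108 TPM in Abl.3 and 95.1 and 93.6 TPM in Abl.4. The libraries of Abl.2 were all far below the others, and the log2 difference was -2.46 (SE 0.0831, adjusted p = 7.88e-06, limma with Benjamini-Hochberg adjustment) against Abl.3 and -2.23 (adjusted p = 1.39e-05) against Abl.4. The maternal share of Prkcb was 1 and 0.996 in Abl.2 and 0.509 to 0.545 in the other 4 libraries. Ubash3b, a phosphatase that dampens tyrosine kinase signalling, was at 0.84 and 0.69 TPM in Abl.2, 4.56 and 4.59 TPM in Abl.3 and 8.05 and 6.70 TPM in Abl.4. Its groups did not overlap, and its log2 difference was -1.66 (limma adjusted p = 0.000457) against Abl.3 and -2.24 (adjusted p = 0.000128) against Abl.4. Prkar2b, a regulatory subunit of the cAMP-dependent protein kinase, was at 9.19 and 9.47 TPM in Abl.2, 19.3 and 17.1 TPM in Abl.3 and 28.9 and 26.7 TPM in Abl.4. It had a log2 difference of -0.89 against Abl.3 (limma adjusted p = 0.00130) and -1.48 against Abl.4 (adjusted p = 0.000163). Gng12 was at 9.17 and 6.48 TPM in Abl.2, 17.57 and 19.03 TPM in Abl.3 and 40.7 and 47.0 TPM in Abl.4, and had log2 differences of -1.14 (limma adjusted p = 0.00261) and -2.36 (adjusted p = 0.000135).

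Among receptors and surface proteins, Lifr, a receptor subunit for leukaemia inhibitory factor, had the lowest level of the named genes in Abl.2. It was at 0.26 and 0.17 TPM in Abl.2, 3.73 and 3.42 TPM in Abl.3 and 5.33 and 5.20 TPM in Abl.4, and the log2(TPM + 1) difference was -1.91 (limma adjusted p = 0.000253) and -2.37 (adjusted p = 0.000103). Its maternal share in Abl.2 rests on 32 and 28 allelic counts, with values of 0.0625 and 0.0714. Thbd, thrombomodulin, which redirects thrombin towards protein C, was at 18.8 and 20.5 TPM in Abl.2, 30.5 and 25.8 TPM in Abl.3 and 115 and 100.4 TPM in Abl.4. The difference of Thbd from Abl.4 was -2.39 on the log2 scale (limma adjusted p = 3.48e-05). Tmem98, a membrane protein, was at 20.5 and 23.5 TPM in Abl.2, 82.6 and 72.4 TPM in Abl.3 and 93.9 and 84.8 TPM in Abl.4. It had log2 differences of -1.77 (limma adjusted p = 8.52e-05) and -1.97 (adjusted p = 5.74e-05).

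Genes of cell death included Pmaip1, which encodes the BH3-only protein Noxa, and Ripk3, a kinase of necroptosis. Pmaip1 was at 0.27 and 0.55 TPM in Abl.2, 3.59 and 4.62 TPM in Abl.3 and 4.90 and 7.47 TPM in Abl.4. Its log2(TPM + 1) difference was -1.86 (limma adjusted p = 0.00152) against Abl.3 and -2.33 (adjusted p = 0.000623) against Abl.4, and the authors' deposited table gave it the widest interval of a member in Abl.2, 0.41. Ripk3 was at 17.4 and 16.7 TPM in Abl.2, 50.4 and 46.8 TPM in Abl.3 and 62.5 and 58.5 TPM in Abl.4, and had log2 differences of -1.46 (limma adjusted p = 7.42e-05) and -1.77 (adjusted p = 3.78e-05). Both genes were thus lower in each library of Abl.2 than in any other library.

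Among metabolic genes, Scd1, the stearoyl-CoA desaturase that makes monounsaturated fatty acids, was at 3.91 and 4.46 TPM in Abl.2, 28.5 and 29.7 TPM in Abl.3 and 33.6 and 36.2 TPM in Abl.4. Its log2 difference was -2.54 (limma adjusted p = 1.76e-05) against Abl.3 and -2.79 (adjusted p = 1.55e-05) against Abl.4. Bdh1, a mitochondrial dehydrogenase of ketone bodies, was at 10.6 and 9.47 TPM in Abl.2, 74.8 and 78.5 TPM in Abl.3 and 26.3 and 26.0 TPM in Abl.4, so that all 3 clones were apart. The difference of Bdh1 was -2.81 (limma adjusted p = 7.88e-06) against Abl.3 and -1.30 (adjusted p = 0.000162) against Abl.4. Erlin1, a protein of the endoplasmic reticulum that takes part in sterol regulation, had log2 differences of -0.82 (limma adjusted p = 0.00178) and -1.32 (adjusted p = 0.000269). Hadh, an enzyme of mitochondrial fatty acid oxidation, was at 51.9 and 51.5 TPM in Abl.2, 61.6 and 56.3 TPM in Abl.3 and 67.6 and 59.7 TPM in Abl.4. Both libraries of Abl.2 were below the others, whereas Abl.3 and Abl.4 overlapped, and its differences of -0.18 (limma adjusted p = 0.169) and -0.29 (adjusted p = 0.0561) did not pass. With quantile normalisation the difference of Hadh from Abl.3 was -0.30 (adjusted p = 0.0422), and with edgeR on the summed allelic counts the difference from Abl.4 was -0.47 (adjusted p = 0.0108). DESeq2 on the same counts also gave -0.47 from Abl.4 (adjusted p = 0.00285). A limma fit with a term for the replicate number gave -0.29 from Abl.4 (adjusted p = 0.0229). Without replicate 2 of Abl.4 the limma difference of Hadh from Abl.4 was -0.38 (adjusted p = 0.0477).

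Members that act on chromatin or transcription included Tet2, an enzyme that oxidises 5-methylcytosine and is often mutated in blood cancers. The maternal share of Tet2 was 0.00355 (Wilson interval 0.00121 to 0.0104) and 0.00658 (0.00319 to 0.0135) in the libraries of Abl.2, 0.440 and 0.424 in Abl.3 and 0.470 and 0.460 in Abl.4. Its abundance was 3.65 and 3.94 TPM in Abl.2, 2.69 and 3.35 TPM in Abl.3 and 7.81 and 8.64 TPM in Abl.4. Tet2 had a log2 difference of -0.94 from Abl.4 (limma adjusted p = 0.00416), while the difference of 0.26 from Abl.3 did not pass (adjusted p = 0.214). Zfp110, a zinc finger protein, had maternal shares of 0.998 in both libraries of Abl.2 and 0.556 to 0.655 elsewhere, with 20.3 and 22.7 TPM in Abl.2, 20.5 and 21.7 TPM in Abl.3 and 18.9 and 19.9 TPM in Abl.4. Its differences of 0.02 (limma adjusted p = 0.874) and 0.14 (adjusted p = 0.329) did not pass, and the TPM of Abl.2 and Abl.3 overlapped.

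Membrane traffic was represented by Unc13d, which primes cytotoxic granules for release, and by Epn1, an endocytic adaptor. Unc13d was at 8.36 and 9.10 TPM in Abl.2, 22.4 and 21.9 TPM in Abl.3 and 20.4 and 20.4 TPM in Abl.4, and had log2 differences of -1.25 (limma adjusted p = 0.000230) and -1.14 (adjusted p = 0.000350). Myo18a, an unconventional myosin linked to the Golgi apparatus, had log2 differences of -0.83 (limma adjusted p = 0.00212) and -1.15 (adjusted p = 0.000575), and Gsap, known as a gamma-secretase activating protein, had log2 differences of -1.37 (adjusted p = 0.000394) and -1.09 (adjusted p = 0.00104). Lxn, latexin, an inhibitor of carboxypeptidases, was the most abundant member outside Abl.2, at 82.5 and 87.2 TPM in Abl.2, 163 and 167 TPM in Abl.3 and 143 and 166 TPM in Abl.4. It had log2 differences of -0.96 (limma adjusted p = 0.000520) and -0.85 (adjusted p = 0.000868). The maternal share of Lxn was 0.915 and 0.902 in Abl.2 and 0.641 to 0.681 in the other libraries.

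Some calls of named genes were lost when a single library was left out. Epn1 was at 45.2 and 34.1 TPM in Abl.2, 66.8 and 53.9 TPM in Abl.3 and 73.8 and 71.3 TPM in Abl.4; its difference of -0.60 from Abl.3 (limma adjusted p = 0.0251) went to an adjusted p of 0.127 without replicate 2 of Abl.2, 0.137 without replicate 1 of Abl.3 and 0.0560 and 0.0559 without replicate 1 or 2 of Abl.4, with differences of -0.60 to -0.40. With no filter on low values its adjusted p against Abl.3 was 0.0661. The difference of Epn1 of -0.87 from Abl.4 (limma adjusted p = 0.00738) was -0.89 (0.0505) without replicate 2 of Abl.4. For Thbd the difference of -0.49 from Abl.3 (limma adjusted p = 0.0182) had adjusted p-values of 0.106 and 0.0634 without replicate 1 or 2 of Abl.2 and 0.103 without replicate 1 of Abl.3, with differences of -0.55 to -0.38. Pqlc1, a membrane protein with PQ-loop repeats, had a log2 difference of -0.36 from Abl.3 (limma adjusted p = 0.0183), which reached 0.0532 to 0.109 when any single library of Abl.2 or Abl.3 was left out, at differences of -0.42 to -0.31, and its difference of -1.35 from Abl.4 (adjusted p = 0.000103) kept its call. Snx10 had a log2 difference of -1.10 from Abl.3 (limma adjusted p = 0.0120, and 0.0561 to 0.0817 without any 1 library of either clone, at -1.20 to -1.01). Its difference of -0.33 from Abl.4 did not pass (adjusted p = 0.321), and without replicate 2 of Abl.4 it was -0.70 (adjusted p = 0.0319). Ano10, of the anoctamin family, had a log2 difference of -0.50 from Abl.3 (limma adjusted p = 0.0169, and 0.0506 to 0.102 without any 1 library of either clone, at -0.58 to -0.42), and its difference of -0.24 from Abl.4 did not pass (adjusted p = 0.162). Dis3l2 had a log2 difference of -0.48 from Abl.3 (limma adjusted p = 0.00812), with an adjusted p of 0.0591 without replicate 2 of Abl.2 and 0.0530 without replicate 2 of Abl.3, at -0.46 and -0.47. Its difference of -0.39 from Abl.4 (limma adjusted p = 0.0202) went to 0.0891 and 0.108 without replicate 1 or 2 of Abl.2 and 0.0614 without replicate 1 of Abl.4, at -0.41 to -0.31. Inpp4b, a phosphatase of phosphoinositides, had a log2 difference of -1.09 from Abl.3 (limma adjusted p = 0.00479) and -0.90 from Abl.4 (0.0115), and the latter reached 0.0702 without replicate 1 of Abl.2 and 0.05005 without replicate 1 of Abl.4, at -0.74 and -0.81. The log2 difference of 2700062C07Rik was -0.61 from Abl.3 (limma adjusted p = 0.00358) and -0.53 from Abl.4 (0.00717, and 0.0536 without replicate 1 of Abl.2).

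Of the other genes with extreme shares, Casc4 had log2 differences of -1.44 (limma adjusted p = 0.00353) and -2.27 (adjusted p = 0.000599). Cnrip1 had log2 differences of -0.69 (limma adjusted p = 0.00401) and -0.69 (adjusted p = 0.00437), and with edgeR on the summed allelic counts its difference of -0.41 from Abl.4 did not pass (adjusted p = 0.135). Ice2, a subunit of the little elongation complex of small nuclear RNA genes, had a log2 difference of -0.78 from Abl.4 (limma adjusted p = 0.00522) and its difference of -0.25 from Abl.3 did not pass (adjusted p = 0.169).

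Spry1 went the other way. It encodes Sprouty1, an inhibitor of receptor tyrosine kinase signalling through the Ras pathway, and lies on chromosome 3 from 37639947 to 37644598 (GRCm38, + strand), where 1 annotated antisense gene overlaps it. It was at 346 and 307 TPM in Abl.2, 25.8 and 23.4 TPM in Abl.3 and 34.8 and 29.9 TPM in Abl.4. The log2 difference was 3.67 (SE 0.111, adjusted p = 5.78e-06, limma with Benjamini-Hochberg adjustment) against Abl.3 and 3.30 (adjusted p = 8.70e-06) against Abl.4, which are 13.3-fold and 10.1-fold ratios of mean TPM. Its maternal share was 0.957 and 0.951 in Abl.2, 0.519 and 0.554 in Abl.3 and 0.565 and 0.587 in Abl.4. Spry1 had 14315 and 16157 allelic counts in Abl.2, the most of any member, so its shares have narrow intervals (0.953 to 0.960 and 0.947 to 0.954). Fam160a1 was the other gene higher than in both clones, at 2.02 and 2.06 TPM in Abl.2, 0.52 and 0.33 TPM in Abl.3 and 0.74 and 0.84 TPM in Abl.4. Its difference was 1.10 (limma adjusted p = 0.00457) against Abl.3 and 0.76 (adjusted p = 0.0208) against Abl.4, and the second reached 0.0673 and 0.0678 without replicate 1 or 2 of Abl.2, at 0.77 and 0.76, which left Spry1 as the only member called higher than in Abl.4. The other genes higher than in Abl.3, named here because there were few, were Arhgap39, Arhgap31, Sfxn3 and Birc3. Arhgap31 was at 1.80 and 1.76 TPM in Abl.2, 0.41 and 0.53 TPM in Abl.3 and 13.3 and 17.2 TPM in Abl.4, so Abl.2 lay between the other clones, with log2 differences of 0.92 from Abl.3 (limma adjusted p = 0.00731) and -2.54 from Abl.4. Sfxn3, a mitochondrial sideroflexin, was at 11.5 and 12.3 TPM in Abl.2, 6.09 and 6.27 TPM in Abl.3 and 12.9 and 11.7 TPM in Abl.4, and Birc3, an inhibitor of apoptosis protein, at 14.8 and 14.8, 10.9 and 9.69, and 20.3 and 17.8 TPM in the same order. Arhgap39 rose by 0.95 on the log2 scale against Abl.3 (limma adjusted p = 0.0122); without replicate 1 or 2 of Abl.2 its adjusted p was 0.0555 and 0.0779, at 1.01 and 0.88, and with DESeq2 on the summed allelic counts it was 0.0697.

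The level of each allele was taken next as allelic counts per 1000000 of the library (CPM), which separates a loss of 1 allele from a gain of the other. The major allele alone had a median log2 ratio of -0.03 between Abl.2 and Abl.3 (fold 0.982, quartiles -0.58 and 0.35) and of -0.25 between Abl.2 and Abl.4 (fold 0.840, quartiles -0.82 and 0.21). The sum of both alleles had medians of -0.91 (fold 0.533) and -1.26 (fold 0.417) for the same genes. The major allele was at least 1.5 times higher in Abl.2 than in Abl.3 for 15 of 87 genes (13.6% of single alleles of all eligible genes) and at least 1.5 times lower for 21 (13.1% of single alleles). Against Abl.4 it was at least 1.5 times higher for 11 (9.23% of single alleles) and lower for 30 (14.4% of single alleles). The median over all eligible genes was -0.01 for the maternal and -0.04 for the paternal allele against Abl.3, and -0.02 for each against Abl.4. The major allele is defined by the share in Abl.2, so its ratio is tied to the selection and was not tested.

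**Figure D3:**
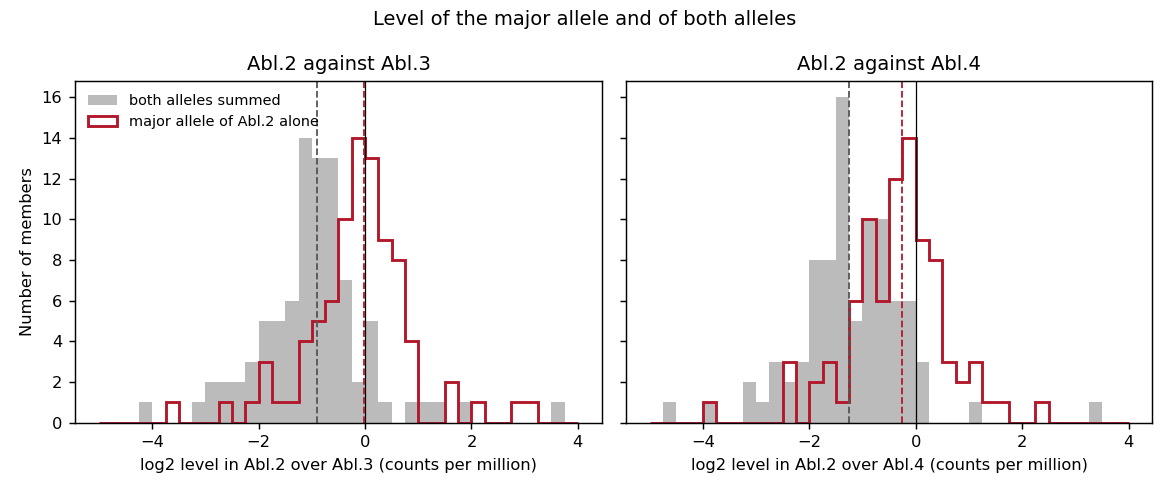
Number of genes (vertical axis) by log2 ratio of allelic CPM in Abl.2 over Abl.3 (left) and over Abl.4 (right), for the sum of both alleles (grey) and for the major allele alone (red outline), with dashed lines at the medians. The major allele is centred near 0 against Abl.3, with a median of -0.03, and the sum lies to the left at -0.91.

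The minor allele was lower in Abl.2 than in Abl.3 for 86 of 87 genes and lower than in Abl.4 for 86, and Spry1 was the exception in both. The limits on the shares nearly fix this direction, so the counts describe the selection. The median level of the minor allele in Abl.2 was 1.27% of that in Abl.3 and 0.934% of that in Abl.4. Apart from Spry1, the smallest decrease was to 29.8% of the level in Abl.3 for Birc3 and to 22.4% of that in Abl.4 for Zfp7. In Spry1 the maternal allele was at 603 and 571 CPM in Abl.2, 26.7 and 26.9 in Abl.3 and 31.5 and 31.1 in Abl.4. The paternal allele of Spry1 was at 27.3 and 29.6 CPM in Abl.2, 24.7 and 21.7 in Abl.3 and 24.3 and 21.9 in Abl.4. Its maternal level was therefore 21.9 times that of Abl.3 and 18.7 times that of Abl.4, while its paternal level was 1.23 times that of each. The extreme share of Spry1 came with a higher maternal level and no lower paternal level. In Fam160a1, the other gene higher in total than in both clones, the major allele was also higher, at 6.85 times the level of Abl.3 and 5.17 times that of Abl.4, but its minor allele was lower, at 0.200 CPM in Abl.2, 1.26 in Abl.3 and 2.499 in Abl.4. The major allele of Fam160a1 was at 10.3 and 9.63 CPM in Abl.2, 1.76 and 1.14 in Abl.3 and 1.05 and 2.80 in Abl.4. Its folds therefore depend on the library taken. The major allele of Arhgap39 was at 4.02 and 2.04 times the levels of Abl.3 and Abl.4. In Abl.3 that allele was at only 0.503 and 0.817 CPM, and the minor allele had 12 and 10 counts, so the first ratio rests on few reads. The major allele of Arhgap31 was at 8.56 times the level of Abl.3 and 0.208 times that of Abl.4. For Arhgap31 the libraries were at 25.6 and 26.2 CPM in Abl.2, 2.01 and 4.03 in Abl.3 and 104 and 144 in Abl.4.

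Other members showed different combinations. For Zfp110 the maternal allele was at 70.4 and 67.7 CPM in Abl.2, 37.2 and 40.8 in Abl.3 and 33.1 and 45.8 in Abl.4, which is 1.77 and 1.75 times the level of the same allele in the other clones. Its total therefore stayed near that of the other clones while the paternal allele fell from 29.7 and 30.3 CPM in Abl.3 to 0.132 and 0.149 in Abl.2. For Tet2 the paternal allele was 1.95 times its level in Abl.3 and 0.895 times its level in Abl.4. For Hadh the maternal allele was 1.42 and 1.34 times the level in Abl.3 and Abl.4, and its libraries in Abl.2, at 68.4 and 72.2 CPM, did not overlap with theirs. For Unc13d the paternal allele was at 34.01 and 34.34 CPM in Abl.2, 38.8 and 40.5 in Abl.3 and 37.0 and 38.5 in Abl.4, so that the major allele was 0.862 and 0.905 times the level of the other clones while the minor one was at 0.176 and 0.186 against 42.8 and 47.6 in Abl.3.

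In other members the major allele was lower as well. For Prkcb the maternal allele was at 40.0 and 41.4 CPM in Abl.2, 130 and 115 in Abl.3 and 102 and 98.6 in Abl.4, which is 0.333 and 0.407 times the level of the other clones. For Scd1 it was at 14.8 and 14.8 CPM in Abl.2 and 57.4 and 53.6 in Abl.3 (0.266 times) and 44.6 and 48.6 in Abl.4 (0.317 times). Lifr had the lowest ratios of the named genes, with its paternal allele at 0.0840 times the level in Abl.3 and 0.0723 times that in Abl.4. For Bdh1 the maternal allele was 0.254 times the level in Abl.3 but 0.848 times that in Abl.4, so the same gene differed in total from one clone through both alleles and from the other mainly through its paternal allele.

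**Figure D4:**
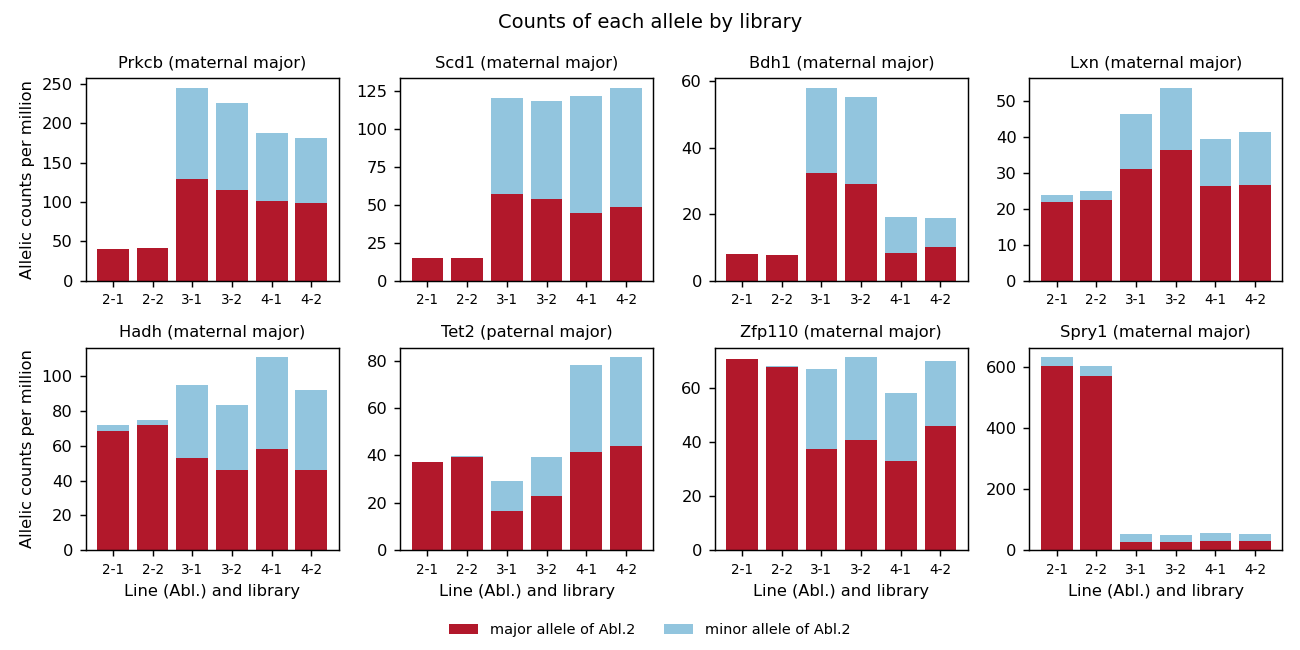
Allelic CPM (vertical axis, linear from 0) of the major allele of Abl.2 (red) and its minor allele (blue, stacked on it) in each library (2-1 is replicate 1 of Abl.2) for 8 of the genes. The blue part is nearly absent from Abl.2 in Prkcb, Scd1, Bdh1, Tet2 and Zfp110, whereas in Spry1 it has a similar height in all 6 libraries and the mean height of the red part in Abl.2 is 21.9 times that in Abl.3.

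The 3 clones can also be set against each other without Abl.2. Of the 86 genes, 36 were lower in Abl.3 than in Abl.4 (26.8% of all genes tested) and 6 higher (11.3% of all genes) by limma with Benjamini-Hochberg adjustment, with a median difference of -0.31 (all genes -0.15). This comparison was not used by the rule beyond balanced shares in both clones. It moved with the scaling: with quantile normalisation 23 members were lower and 17 higher, the lower share of the calls going from 85.7% to 57.5% among members and from 70.2% to 48.0% over all genes. With edgeR on the summed allelic counts 32 were lower and 18 higher, beside 1727 lower and 1516 higher of all 8703 genes tested. Without replicate 1 of Abl.3, 23 were lower, and without replicate 2 of Abl.3 or replicate 2 of Abl.4, 3 were higher. The median stayed below 0 under both, at -0.088 with quantile normalisation and -0.18 with edgeR, while the split of the calls moved with the scaling. In the comparison of Abl.2 with Abl.4, 69 members were lower and 2 higher as scaled by the authors and with quantile normalisation. With edgeR 74 were lower and 2 higher, beside 1640 lower in Abl.2 and 1594 higher of all 8703 genes tested. The rule asks for a very low share of 1 allele in Abl.2, which favours a lower total there. The edgeR fit also used the same allelic counts as the rule. That split is therefore tied to the selection, and nothing is read from its steadiness under other scalings.

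The genes beside the members were examined to see whether the imbalance covered regions or single genes. For each member the nearest tested gene on either side that did not overlap it was taken, which gave 174 pairs in which a flanking gene can stand more than once. In Abl.2, 146 of these (83.9%) had a balanced share from 0.3 to 0.7, against 87.0% of the flanking genes of all eligible genes, and 13 (7.47%, against 5.87%) were past the limits of 0.1 or 0.9. These are means of both libraries, which lay far apart for some flanking genes counted as balanced. An example is Scd4 beside Scd1, at a mean maternal share of 0.437 with a standard deviation of 0.423. Both flanking genes were balanced for 62 of the 87 members and neither for 3. The flanking genes of members were farther away, at a median of 95.8 kb, than those of all eligible genes, at 36.1 kb. Among the tested genes within 1 Mb of a member, 87.7% of 1070 pairs were balanced, and within 100 kb 86.1% of 137 pairs, against 87.4% of all eligible genes in Abl.2. The median share of the member's own major allele among genes within 100 kb was 0.504. Flanking genes share regions with one another, so these proportions are given without a test.

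**Figure D5:**
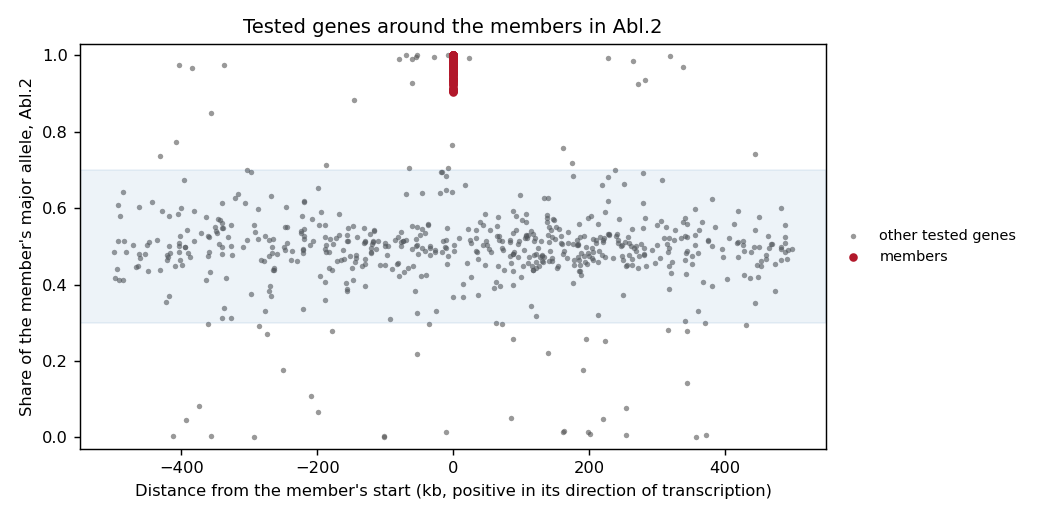
Share of the member's major allele in Abl.2 (vertical axis) for other tested genes within 500 kb of a member's start (grey) by distance in kb along the member's direction of transcription (horizontal axis), with the members at 0 (red) and the balanced range of 0.3 to 0.7 shaded. Most grey points lie in the shaded band on both sides of the members, at all distances shown.

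Of the 13 pairs of a member and a flanking gene past the limits, 9 favoured the same parental allele and 4 opposite alleles, and Zfp251 stands in 2 of the 9. The tally includes flanking genes biased to the same allele in every clone. Maternal shares in Abl.2, Abl.3 and Abl.4 were 0.946, 0.927 and 0.889 for Tmem132e and 0.0662, 0.0661 and 0.0482 for Rnaset2b. For Gm5148 they were 0.0517, 0 and 0.0256, and for Glt28d2 0, 0.178 and 0.0474. The following were singled out after their values were seen. Casp6, an effector caspase, lies 5.60 kb from Pla2g12a, a secreted phospholipase, and both were paternal in Abl.2, at maternal shares of 0.00765 and 0.00581. In Abl.3 Casp6 was at 0.952, on the maternal allele, and in Abl.4 at 0.594, while Pla2g12a was balanced in both. B4galt4, a galactosyltransferase 29.0 kb from Arhgap31, moved from a maternal share of 0.00301 in Abl.2 to 0.994 in Abl.3, with 0.477 in Abl.4. Zfp551, 55.5 kb from Zfp606, went from 0.00357 in Abl.2 to 1 in Abl.3 and 0.980 in Abl.4. These neighbours were thus each biased to the paternal allele in Abl.2 and to the maternal allele in Abl.3, beside members that were balanced in Abl.3. Zfp251 lies between Arhgap39 (33.4 kb) and Zfp7 (7.82 kb) on chromosome 15. All 3 were maternal in Abl.2, with Zfp251 at 1, and Zfp251 was at 0.600 in Abl.3 and 0 in Abl.4.

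Members lay within 500 kb of each other in 4 pairs. Arhgap39 and Zfp7 (155 kb between their starts, chromosome 15) and Erlin1 and Scd1 (360 kb, chromosome 19) were both maternal in each pair. Llgl2, a cell polarity gene, and Unc13d (238 kb, chromosome 11) were on opposite alleles, with mean maternal shares in Abl.2 of 0.923 and 0.00527. Zfp606 and Zfp110 (356 kb, chromosome 7) were on opposite alleles as well, at 0.00439 and 0.998. Zfp606 was at 1.55 and 1.70 TPM in Abl.2, against 3.22 and 3.31 TPM in Abl.3. It had a log2 difference of -0.70 from Abl.3 (limma adjusted p = 0.0112, and 0.0579 without replicate 1 of Abl.2 and 0.0571 without replicate 2 of Abl.3, at -0.66 and -0.69) and -0.87 from Abl.4 (0.00549). Neither Zfp7 nor Llgl2 passed in either comparison with limma, with adjusted p-values of 0.233 and 0.403 for Zfp7 and 0.773 and 0.0550 for Llgl2. With edgeR on the summed allelic counts the difference of Llgl2 from Abl.4 was -0.79 (adjusted p = 0.0256). Lef1, a transcription factor of the Wnt pathway in early lymphocytes that was left out of the set, ends 9063 bases from Hadh, and the neighbours used opposite alleles in Abl.2, at maternal shares of 0.0144 for Lef1 and 0.957 for Hadh. In Llgl2 and Unc13d, Zfp606 and Zfp110, and Hadh and Lef1, near or adjacent genes were thus monoallelic on different parental chromosomes of the same clone.

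The members were set against fixed gene lists. None of the 23 eligible genes among 38 B-lineage transcription factors, none of the 41 eligible among 57 B-lineage surface and signalling genes and none of the 4 eligible among 31 imprinted genes was a member. At the 1.16% of all eligible genes that were members, none or few would stand in lists of this size, so nothing is read from these counts. The lists are also not complete, since the member Prkcb, which relays the B-cell receptor signal, stands in none of them. In Abl.2, 19 of the 23 transcription factors and 33 of the 41 surface and signalling genes had balanced shares, as did all 10 eligible lineage markers, beside 87.4% of all eligible genes. In the list of 17 genes of DNA methylation, 9 were eligible, 7 were balanced in Abl.2 and Tet2 was the only member. Dnmt1, the maintenance methyltransferase, had a maternal share of 0.515 in Abl.2, and the de novo methyltransferases Dnmt3a and Dnmt3b had 0.457 and 0.490. The remaining gene, Zbtb38, which encodes a methyl-CpG binding protein, had a share of 1 in Abl.2 but also 0.924 in Abl.4, outside the balanced range. In abundance, 6 of 16 methylation genes tested were higher and 3 lower in Abl.2 than in Abl.3 by limma, beside 25.9% and 14% of all genes. Against Abl.4, 1 was higher and 4 lower, beside 15% and 18.4%.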

How the data were processed

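RNA was sequenced from 3 clones with 2 library preparations each, grouped by the line in the labels' titles. The authors deposited, per the file headers, whole-number counts of the maternal and paternal allele of each gene at SNP positions, TPM values obtained with DESeq2, and the fraction of maternal counts per line with an interval whose level is not given in the sources used here. The submitters' processing notes name STAR 2.5.4a, SAMtools, GATK and DESeq2 and the builds GRCm38, mm10 and GRCh37, with no roles. Coordinates are those of the authors' tables; 98.0% of 19338 genes compared had the same start in the GRCm38 annotation GENCODE M21. It is not stated whether a read over several SNPs was counted once or whether counting used strand, and no use was made of which parent had which strain. TPM keep no depth.

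The maternal share was the maternal part of a gene's allelic counts, averaged over the libraries of a line. Abundance was tested with limma 3.58.1 in R 4.3.3 (linear model with an empirical Bayes trend) on log2(TPM + 1). Genes averaging 1 TPM or more entered, with all 3 lines in the fit and Benjamini-Hochberg adjustment over all genes tested. Such fold changes understate the change of low genes. The allele levels are the authors' deposited allelic counts divided by the library's allelic total and given per 1000000 (CPM). Python 3.11.15, pandas 2.3.3, scipy 1.17.1 and matplotlib 3.10.9 were used for the rest. Only the limma fit was tried on simulated data, and the edgeR and DESeq2 fits were not. Alternatives were other coverage and share limits, a pseudocount of 0.1, no filter on low values, quantile normalisation, edgeR 4.0.16 and DESeq2 1.42.0 on summed allelic counts, TMM scaling, a replicate block, a minimum change and leaving out each library.

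The members and the gene lists were chosen with earlier results of these data known. The genes named were those in a fixed list, the 8 most abundant in Abl.3 and Abl.4, up to 6 largest falls and 6 largest rises called against both clones, 3 nearest to each share limit on either side, 4 most extreme shares on each side with at least 100 counts in every library, and members within 500 kb of each other; other names are marked where they occur. Promoters are from the RefSeq table of GRCm38.p6.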

Additional observations from a re-analysis of the deposited data

How the results depend on the processing

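The set itself held 84 to 95 genes when any 1 library was left out, 93 and 80 at coverage minimums of 10 and 50 counts, 68 and 106 at share limits of 0.05 and 0.95 or 0.15 and 0.85, and 87 with the counts of both libraries pooled. The median abundance difference against Abl.3 was -0.81 with a pseudocount of 0.1, -0.88 with quantile normalisation and -0.92 with edgeR on summed allelic counts, and -0.77 to -0.72 without 1 library. Against Abl.4 it was -1.19, -0.88 and -1.26 under the same settings and -1.06 to -0.95 without 1 library. Between Abl.3 and Abl.4 it was -0.088 with quantile normalisation and -0.18 with edgeR. When a log2 change of 1 or more was required, 2 members were higher and 24 lower than in Abl.3, 1 higher and 42 lower than in Abl.4, and 1 higher and 13 lower in Abl.3 than in Abl.4. At share limits of 0.15 and 0.85, 11 members were higher than in Abl.3 and 5 higher than in Abl.4, and at 50 counts 1 was higher than in Abl.4. Leaving out 1 library gave 4 to 7 higher and 44 to 58 lower than in Abl.3, 1 to 2 higher and 56 to 69 lower than in Abl.4, and 3 to 6 higher and 23 to 31 lower between Abl.3 and Abl.4. For that last comparison quantile normalisation gave 17 higher and 23 lower, edgeR 18 higher and DESeq2 17 higher. The causes of these shifts were not tested. Of 840 reruns of named genes' differences, 794 left the call as it was, 38 lost the call and 8 gained it. No call was reversed in direction. This does not cover the sign of differences that were not called, and small ones such as that of Llgl2 from Abl.3 did change sign.

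The replicate numbers are preparation numbers that nothing in the labels ties across clones, and same-numbered libraries deviated together with correlations of only 0.104, 0.187 and 0.161 across genes. With the replicate block as a term, 59 members were lower and 6 higher than in Abl.3, 72 lower and 2 higher than in Abl.4, and 37 lower and 6 higher between Abl.3 and Abl.4. Of all 11003 genes tested in that fit, 1875 were lower and 3338 higher in Abl.2 than in Abl.3. Against Abl.4, 2499 were lower and 2109 higher, and between Abl.3 and Abl.4, 3565 were lower and 1619 higher. Among named genes the block changed 1 call, Hadh against Abl.4 (adjusted p = 0.0229, limma). The share of flanking genes that were balanced was 87.7% over all tested genes within 1 Mb, and the medians of the major allele were -0.03 and -0.25 with TMM scaling. The planned comparison of promoter CG content was set aside as void, because too few members matched a promoter. With 2 libraries of 1 clone per group, no result extends past these clones, and genes below 20 allelic counts in any library, including those silent in a clone, were out of reach.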
